A study of Mus musculus with 2 samples.

Results

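The genes described here are markers of macrophages and other white blood cells, measured in young calf muscle. They were given as 41 symbols, which were looked up in the symbol field of the deposited transcript tables and joined by gene identifier to the gene tables. Of the 41 symbols, 40 matched 1 gene each among 55536 annotated genes, and Itgam2 matched none. The matched genes comprised 14 macrophage markers, 6 genes of leukocyte and myeloid signalling, 2 monocyte receptors, the antigen-presentation gene Cd74 and 3 ligands. The others were 4 mast cell genes, 5 lymphocyte genes, the progenitor and dendritic cell receptor Flt3 and 4 neutrophil genes.

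The gastrocnemius, a large muscle of the calf, was taken from 2 male B6CASTF1/J mice aged 4 days, and total RNA of each animal gave 1 library. B6CASTF1/J animals are first-generation hybrids of a C57BL/6J and a CAST parent, so each autosomal gene has 1 allele from each strain, and the parental alleles were not analysed separately here. The labels name the libraries biological replicates 1 and 2 of a single group, name no treatment or genetic change, and give 300 ng of starting RNA and added ERCC spike-ins for each. They number the animals separately but list 1 donor record for both. Annotated genes held 35281187 expected counts in replicate 1 and 32301531 in replicate 2.

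Skeletal muscle holds resident macrophages that clear debris and dying cells and take part in growth and repair. Their survival depends on the receptor CSF1R, which binds the ligands CSF1 and IL-34. Circulating monocytes enter tissue along chemokines such as CCL2, which binds CCR2. Connective-tissue mast cells, which lie along vessels and in the sheaths around muscle, depend on the receptor KIT and store carboxypeptidase A3, chymases and tryptases in their granules. T cells, B cells and neutrophils are sparse in resting muscle, and neutrophil granule genes are most active in the bone marrow.

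Levels are given as TPM, a transcript abundance corrected for gene length and depth, which can be compared between genes of 1 library. Means carry the SD over the 2 libraries. In whole tissue, fewer cells of a type and less RNA per cell cannot be told apart. Each animal gave a single library, so what separates the animals cannot be told apart from dissection or library preparation. The smallest p that an exact two-sided sign-flip test allows with 2 values is 0.5, so no test was made and each ratio stands without a replicate check. Instead each ratio carries a 95% exact (Clopper-Pearson) counting interval, which covers counting error only.

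All 8 skeletal muscle markers of a list were at 1 TPM or more, with a summed 40807 TPM in replicate 1 and 37817 TPM in replicate 2. The libraries differed in their skin genes. A list of 8 keratinocyte markers summed to 14.3 TPM in replicate 1 and 768 TPM in replicate 2, and 7 of the 8 were over 2-fold higher in replicate 2. A list of 6 melanocyte markers summed to 8.71 and 14.6 TPM, of which Sox10 gave 5.59 and 6.60 TPM. The 5 that averaged at least 10 counts had a median log2 ratio of replicate 2 to replicate 1 of 1.23. Of these, 3 were over 2-fold higher in replicate 2, against 5.23% of all genes with such counts. A list of 8 erythroid genes summed to 677 TPM in replicate 1 and 789 TPM in replicate 2, led by Hba-a1 (246.60 and 273.47 TPM). In sum, fibroblast markers (6148 and 6126 TPM over 8 genes) and endothelial markers (221 and 233 TPM over 6 genes) lay close together in the libraries. Single genes differed more, such as Lum (37.85 and 54.28 TPM), Pi16 (22.23 and 17.70 TPM) and Tek (16.30 and 12.97 TPM). Counting intervals lay above 0 for 2 and below 0 for 3 of the fibroblast genes, and above 0 for 2 and below 0 for 1 of the endothelial genes. The part of the skin and erythroid genes in any difference between the animals below was not tested.

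Macrophage markers were present at moderate levels and mast cell proteases were as high as the highest of them, while lymphocyte markers were all low and 2 of 4 neutrophil markers were below 1 TPM. Of the 40 genes, 30 reached 1 TPM in both libraries, against 24.5% of all annotated genes. The other 10 were below 1 TPM in both libraries: Timd4, Ccr2, all 5 lymphocyte genes, Flt3, Ngp and Ltf. All 40 are protein-coding, while the annotated genes include many noncoding ones, so the 24.5% is not a matched background. Siglec1, a gene outside the set at 1.00 TPM in replicate 1, ranked 12287 there among 22015 protein-coding genes outside the mitochondrial genome. The median level was 24.1 ± 5.27 TPM (SD, n = 2) for the mast cell genes, 9.72 ± 0.350 TPM for the macrophage genes and 8.24 ± 1.73 TPM for the signalling genes. It was 1.09 ± 0.279 TPM for the neutrophil genes and 0.425 ± 0.00707 TPM for the lymphocyte genes. The order of these 5 groups, from mast cell genes down to lymphocyte genes, was the same in each library, with medians of 20.4 and 27.9 TPM at the top and 0.420 and 0.430 TPM at the bottom. The macrophage median was above the signalling median by 9.47 against 7.02 TPM in replicate 1, and by only 9.97 against 9.46 TPM in replicate 2.

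**Figure D1:**
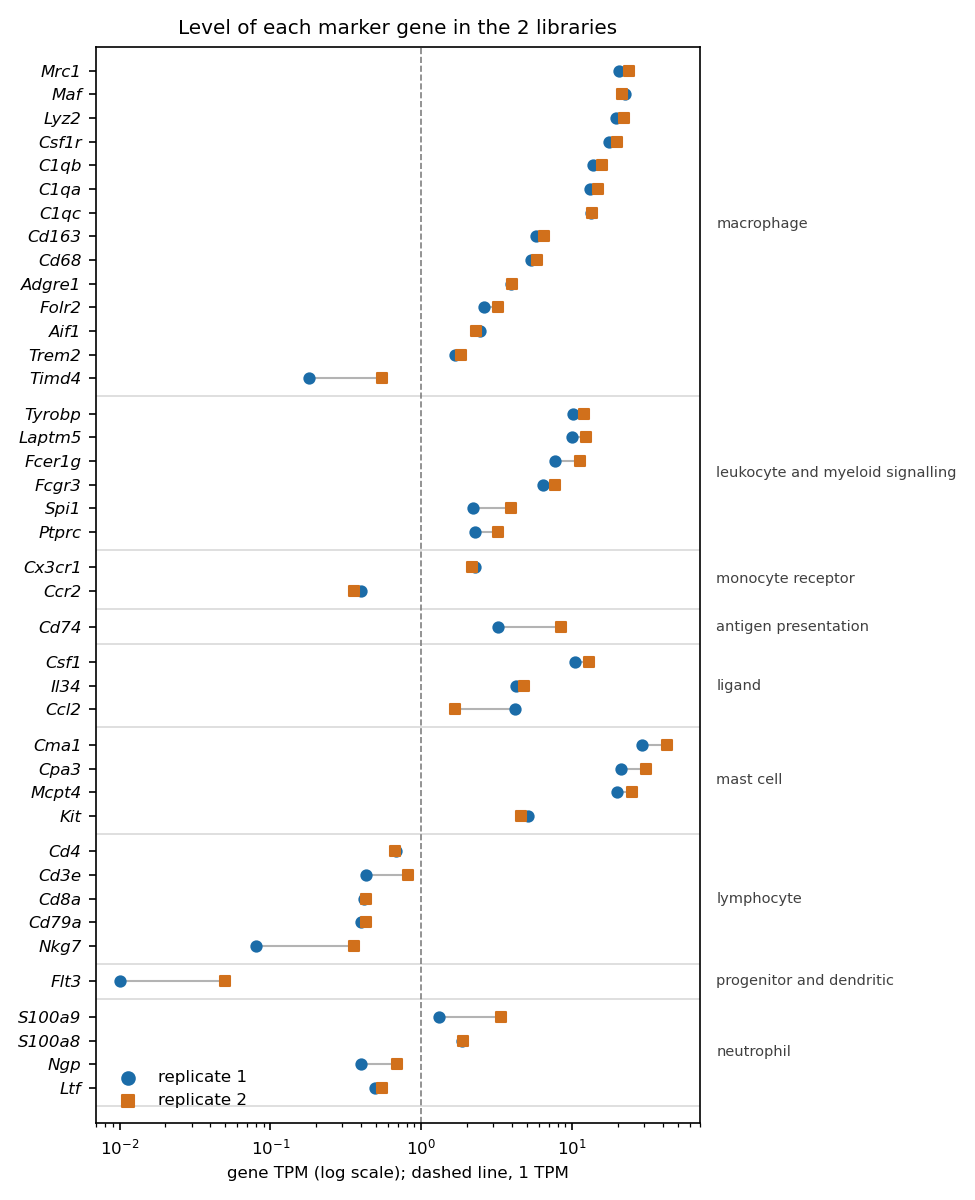
Level of each of the 40 marker genes in TPM (horizontal log axis) in replicate 1 (circles) and replicate 2 (squares), grouped by role and ordered by mean level; the dashed line marks 1 TPM. The mast cell proteases Cma1, Cpa3 and Mcpt4 sit at the right with Mrc1, Maf, Lyz2 and Csf1r, and all 5 lymphocyte genes lie left of 1 TPM.

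Among the macrophage markers, Mrc1, Maf, Lyz2 and Csf1r were the highest and differed little from each other. Mrc1, the mannose receptor CD206 that takes up glycoproteins, had 20.25 TPM in replicate 1 and 23.72 TPM in replicate 2 (mean 22.0 ± 2.45). Maf, a transcription factor of tissue macrophages that other cell types also use, stood at 22.48 and 21.28 TPM. The order of these genes was not the same in both libraries: Maf was above Mrc1 in replicate 1 and below it in replicate 2. Lyz2, the lysozyme of myeloid cells, had 19.40 and 22.08 TPM. Csf1r had 17.62 and 19.92 TPM, with 1837 and 1814 counts. Each of these 4 ranked between 3005 and 4049 among 22015 protein-coding genes outside the mitochondrial genome, Mrc1 in replicate 2 being the highest placed and Csf1r in replicate 1 the lowest.

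Reads of Lyz2 could be split with its near copy Lyz1, which stood at 1.54 and 2.60 TPM, so Lyz2 carries that uncertainty. Csf1r overlaps Hmgxb3, a gene on the opposite strand with 7.87 and 7.39 TPM, and whether the counting used strand was not stated.

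The 3 chains of complement C1q, the protein that starts the classical complement pathway and that macrophages make in tissue, stood at nearly the same level. C1qa had 13.19 and 14.86 TPM, C1qb had 13.72 and 15.77 TPM, and C1qc had 13.32 and 13.49 TPM. C1qb was 1.04-fold the level of C1qa in replicate 1 and 1.06-fold in replicate 2. C1qc was 1.01-fold and 0.908-fold the level of C1qa. The C1q protein contains the chains in equal number. Their summed counts, 1187 and 1211, gave a log2 ratio of replicate 2 to replicate 1 of 0.11 with a counting interval of -0.00 to 0.23.

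The chains also share their place in the genome. C1qb (chr4:136880129-136886187), C1qc (chr4:136889804-136893065) and C1qa (chr4:136895917-136898803), all on the minus strand in GRCm38 (mm10), lie 3616 and 2851 bp apart with no protein-coding gene between them. Windows of 300 bases around the transcription start (250 before, 50 after) from RefSeq (GRCm38.p6) were found for 30 of the 40 genes. None was found for Csf1r, Adgre1, C1qa, Maf, Spi1, Tyrobp, Cd74, Il34, Ccl2 and Cd4. The windows of C1qb (chr4:136886151-136886450) and C1qc (chr4:136892865-136893164) are shown 5′ to 3′ because these neighbours stood at the same level. Capitals mark the letters GAGGAA or their reverse complement TTCCTC, the core bound by PU.1, the myeloid transcription factor encoded by Spi1.
C1qb: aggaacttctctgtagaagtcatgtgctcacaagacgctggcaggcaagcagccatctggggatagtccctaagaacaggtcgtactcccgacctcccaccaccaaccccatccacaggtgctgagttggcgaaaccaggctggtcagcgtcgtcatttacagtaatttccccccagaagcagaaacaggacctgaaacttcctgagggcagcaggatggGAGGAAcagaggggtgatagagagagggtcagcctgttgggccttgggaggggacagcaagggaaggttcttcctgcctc
C1qc: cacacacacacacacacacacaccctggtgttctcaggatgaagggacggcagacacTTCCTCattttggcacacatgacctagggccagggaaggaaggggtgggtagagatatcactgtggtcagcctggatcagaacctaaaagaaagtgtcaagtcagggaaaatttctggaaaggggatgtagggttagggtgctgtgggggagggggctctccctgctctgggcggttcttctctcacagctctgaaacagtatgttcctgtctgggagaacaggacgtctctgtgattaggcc

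The match begins 30 bases before the start in C1qb and 193 bases before it in C1qc, where it lies on the other strand. Searched on both strands, GAGGAA was in a window of 31.3% of 27025 genes and of 15 of the 30 marker genes. Of the 14 macrophage and myeloid signalling genes with a window, 9 held it: Cd68, C1qb, C1qc, Mrc1, Trem2, Aif1, Ptprc, Fcgr3 and Laptm5. The other 6 windows with a match belonged to Kit, Cd3e, Cd8a, Cd79a, S100a8 and Ltf, so the letters were also found at genes of other cell types. A match describes the letters in a window and not a bound site.

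The remaining macrophage markers were lower and most lay close together in the libraries. Cd163, a scavenger receptor for haemoglobin bound to haptoglobin, had 5.76 and 6.45 TPM. Cd68, a lysosomal glycoprotein, had 5.35 and 5.84 TPM. Adgre1, which encodes the surface antigen F4/80, had 3.94 and 3.98 TPM. Folr2, a folate receptor of resident macrophages, Aif1, which encodes the actin-binding protein IBA1, and Trem2, a lipid-sensing receptor, ranged from 1.68 to 3.22 TPM. Folr2 overlaps the antisense gene Gm10602 (1.06 and 1.40 TPM), which had more counts than Folr2 in each library, so its level is uncertain.

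Timd4, a receptor for phosphatidylserine on dying cells that marks part of the resident macrophages, was the lowest of the 14. It had 0.18 TPM in replicate 1 and 0.55 TPM in replicate 2, from 11 and 31 counts. Its log2 ratio between the animals was 1.58 with a counting interval of 0.55 to 2.72. The macrophage genes other than Timd4 had log2 ratios between -0.14 (Maf) and 0.34 (Folr2).

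A further list of 28 macrophage and CSF1-axis genes gave the same picture of moderate levels, with 23 at 1 TPM or more in both libraries and list medians of 4.35 and 4.86 TPM. Its highest genes were the lysosomal proteases Ctsd (111.15 and 116.65 TPM) and Ctsb (85.68 and 103.28 TPM) and the lipid carrier Apoe (55.60 and 78.36 TPM), which many cell types express. Vsig4, a complement receptor of some resident macrophages, had no count in either library.

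The genes of leukocyte and myeloid signalling were all above 1 TPM. Their median log2 ratio of replicate 2 to replicate 1 was 0.24, against 0.01 for all genes that averaged at least 10 counts. Tyrobp, the adaptor DAP12 that signals for TREM2 and other receptors, had 10.17 and 11.96 TPM, which was 6.05-fold and 6.57-fold the level of Trem2. Laptm5, a lysosomal membrane protein of blood cells, had 9.93 and 12.25 TPM. Fcer1g, the common gamma chain of Fc receptors in both myeloid and mast cells, had 7.64 TPM in replicate 1 and 11.19 TPM in replicate 2. Its log2 ratio was 0.54 with a counting interval of 0.20 to 0.88.

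Fcgr3, a low-affinity receptor for IgG, had 6.40 and 7.74 TPM. Its relatives Fcgr2b (4.86 and 3.98 TPM) and Fcgr4 (0.15 and 0.13 TPM) share sequence with it, and the split of reads among them is uncertain.

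Ptprc, which encodes CD45, the phosphatase on nearly all nucleated blood cells, had 2.27 TPM in replicate 1 and 3.23 TPM in replicate 2. Its log2 ratio of 0.53 had an interval of 0.29 to 0.78. Csf1r was 7.76-fold the level of Ptprc in replicate 1 and 6.17-fold in replicate 2. Spi1, which encodes PU.1, had 108 and 113 counts, a log2 ratio of 0.15 with an interval of -0.24 to 0.54. Its TPM differed more, at 2.20 and 3.90, a log2 ratio of 0.83. The short transcript Spi1-204 of 544 nt was assigned 0.210% of the gene in replicate 1 and 38.1% in replicate 2, while Spi1-201 held 81.7% and 41.6%. A shorter mean length raises TPM at equal counts, so the counts and the TPM of Spi1 gave different ratios.

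The ligands of CSF1R were both present, Csf1 above Il34. Csf1 had 10.50 TPM in replicate 1 and 12.89 TPM in replicate 2, and Il34 at 4.26 and 4.76 TPM. Csf1 was thus 2.46-fold and 2.71-fold the level of Il34, and 0.596-fold and 0.647-fold that of its receptor Csf1r. Il34 was 0.242-fold and 0.239-fold the level of Csf1r. The assignment of Il34 to coding transcripts was partial: transcripts annotated as noncoding held 52.7% of its TPM in replicate 1 and 59.1% in replicate 2. In the second deposited quantification these were 29.4% and 47.6%.

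Of the monocyte receptors, Cx3cr1 was above Ccr2 in each library. Cx3cr1, the fractalkine receptor found on patrolling monocytes and many resident macrophages, had 2.26 and 2.16 TPM. Ccr2, the receptor that draws inflammatory monocytes into tissue, had 0.40 and 0.36 TPM from 39 and 35 counts. Cx3cr1 was 5.65-fold the level of Ccr2 in replicate 1 and 6.00-fold in replicate 2. The annotated Cx3cr1 gene overlaps 9 others, among them Xirp1, a muscle gene on the same strand with 45.44 and 53.17 TPM, so the Cx3cr1 level carries the uncertainty of that overlap. Cx3cl1, the ligand of CX3CR1, stood at 0.420-fold and 0.403-fold the level of its receptor. In a further list of 10 monocyte genes, 3 reached 1 TPM in both libraries. These were Fn1 (268.21 and 292.94 TPM), F13a1 (13.06 and 14.68 TPM) and Nr4a1 (10.32 and 11.28 TPM), while Ly6c2 stood at 0.68 and 0.18 TPM.

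Ccl2, the chemokine that binds CCR2, was the only gene of the 40 that was over 2-fold higher in replicate 1. It had 4.19 TPM from 93 counts in replicate 1 and 1.67 TPM from 34 counts in replicate 2. The log2 ratio was -1.37 with a counting interval of -1.98 to -0.79. Of 17998 genes whose counts averaged at least 10, 1.12% were over 2-fold higher in replicate 1. Its receptor Ccr2 had a log2 ratio of -0.07 with an interval of -0.77 to 0.62, so Ccl2 was 10.5-fold the level of Ccr2 in replicate 1 and 4.64-fold in replicate 2. Ccl7, a neighbouring chemokine of the same receptor and no member of the set, stood at 1.51 and 0.78 TPM (31 and 15 counts).

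In a list of 19 chemokines, cytokines and growth factors, 6 reached 1 TPM in both libraries. The highest were Cxcl12, a chemokine of stromal cells, at 42.81 and 42.71 TPM and Kitl, the ligand of KIT, at 19.39 and 19.60 TPM. The cytokines Il1b, Il10 and Csf3 had no count in either library, while Tnf had 32 and 22 counts and Il6 had 2 and 4.

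**Figure D2:**
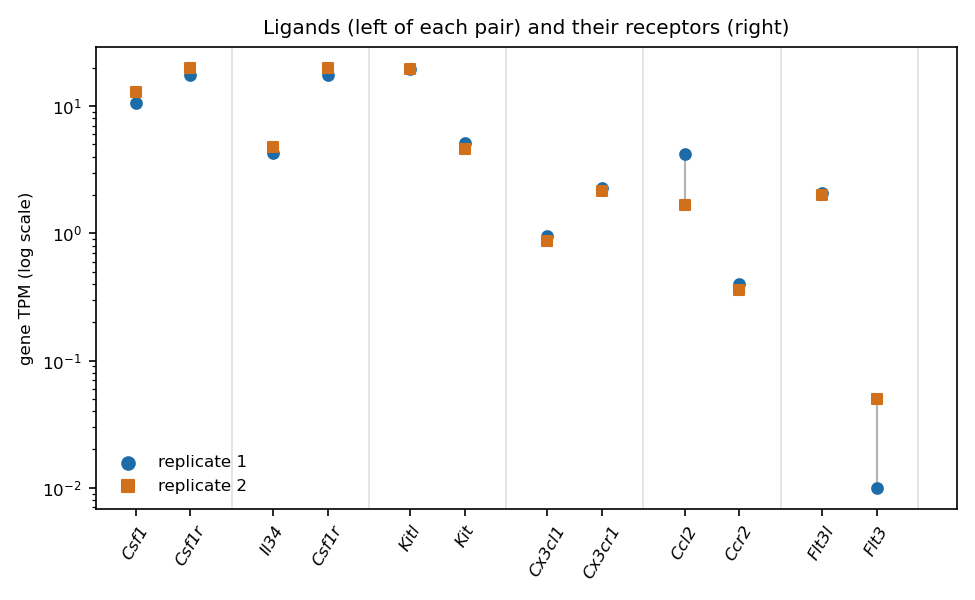
Level in TPM (vertical log axis) of 6 ligands, left in each pair, and their receptors, right, in replicate 1 (circles) and replicate 2 (squares). Csf1 and Il34 lie below their receptor Csf1r, Kitl lies above Kit, and Ccl2 is the ligand whose libraries stand apart, at 4.19 and 1.67 TPM.

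Mast cell proteases were among the highest genes of the set. Cma1, the mast cell chymase that cleaves peptides such as angiotensin I, had 28.90 TPM in replicate 1 and 42.42 TPM in replicate 2 (35.7 ± 9.56). Cpa3, the carboxypeptidase of mast cell granules, stood at 21.14 and 30.96 TPM (26.1 ± 6.94). Mcpt4, a chymase of connective-tissue mast cells, stood at 19.68 and 24.76 TPM (22.2 ± 3.59). All 3 were higher in replicate 2, and Cma1 was the highest of the 40 genes in each library. Among protein-coding genes Cma1 ranked 2428 in replicate 1 and 1570 in replicate 2. Cma1 was 1.43-fold and 1.79-fold the level of the macrophage receptor Mrc1.

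Cma1 and Cpa3 kept their proportion to each other better than their level. Cma1 was 1.37-fold the level of Cpa3 in each library, and both had a log2 ratio between the animals of 0.53 with an interval of 0.40 to 0.66. Mcpt4 had a log2 ratio of 0.31 (0.15 to 0.48), and Cma1 was 1.47-fold its level in replicate 1 and 1.71-fold in replicate 2. Kit, the receptor that mast cells need and that melanocytes and interstitial cells also carry, did not share this direction. It had 5.10 and 4.58 TPM, a log2 ratio of -0.08 with an interval of -0.24 to 0.08. Its ligand Kitl was 3.80-fold and 4.28-fold the level of Kit.

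Other mast cell genes were mixed in level. The tryptases Tpsb2 (35.07 and 49.15 TPM) and Tpsab1 (14.06 and 16.51 TPM) led a list of 9, followed by the transcription factor Gata2 (3.23 and 3.79 TPM), which other blood cells and endothelium also use. Of the 9, 5 reached 1 TPM in both libraries and 3 were below it in both. The list medians were 1.18 and 1.96 TPM, below those of the further macrophage list (4.35 and 4.86 TPM). This is the reverse of the order of the member medians, where 3 of the 4 mast cell genes are granule proteases. The median log2 ratio of the 7 averaging at least 10 counts was 0.23, against 0.01 for all genes with such counts. Ms4a2, the beta chain of the IgE receptor, had 34 counts in each library, and Fcer1a, its alpha chain, had none. Proteases of mucosal mast cells were at or near 0, with no count of Mcpt1 and 2 counts of Mcpt2 in each library. Cma2, a relative of Cma1, had 1.50 and 2.28 TPM.

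The promoter windows of the 3 proteases are shown because these genes were among the highest and were all higher in the same animal. Cma1 (chr14:55941451-55944675) and Mcpt4 (chr14:56059629-56062313) lie on the minus strand of the chymase locus, 115 kb apart, with 4 protein-coding genes between them, and Cpa3 (chr3:20215620-20242181) lies on the minus strand of another chromosome. The windows, from RefSeq (GRCm38.p6), are chr14:55944626-55944925 for Cma1, chr14:56062261-56062560 for Mcpt4 and chr3:20242132-20242431 for Cpa3, printed 5′ to 3′. Capitals mark the match to a word bound by GATA factors. The words searched on both strands were AGATAA and also AGATAG, with TGATAA as well as TGATAG.
Cma1: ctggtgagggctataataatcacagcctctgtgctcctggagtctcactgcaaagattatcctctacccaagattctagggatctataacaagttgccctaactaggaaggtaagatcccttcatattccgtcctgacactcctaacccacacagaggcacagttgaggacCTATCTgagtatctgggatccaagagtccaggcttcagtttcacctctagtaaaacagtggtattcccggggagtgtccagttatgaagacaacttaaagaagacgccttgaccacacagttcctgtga
Mcpt4: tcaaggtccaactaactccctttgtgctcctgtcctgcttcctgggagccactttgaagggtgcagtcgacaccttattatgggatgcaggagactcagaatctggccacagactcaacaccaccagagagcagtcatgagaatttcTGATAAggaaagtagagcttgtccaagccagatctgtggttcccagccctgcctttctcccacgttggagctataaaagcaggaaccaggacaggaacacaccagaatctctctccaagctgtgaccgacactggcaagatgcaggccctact
Cpa3: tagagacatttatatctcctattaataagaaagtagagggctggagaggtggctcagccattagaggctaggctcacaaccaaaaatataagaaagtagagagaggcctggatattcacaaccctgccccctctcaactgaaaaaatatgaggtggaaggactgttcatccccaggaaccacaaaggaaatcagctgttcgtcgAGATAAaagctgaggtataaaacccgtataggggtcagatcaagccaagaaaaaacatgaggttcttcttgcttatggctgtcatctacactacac

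All 3 windows held such a word, 79 bases before the start in Cma1, 103 in Mcpt4 and 46 in Cpa3. Over all 27025 genes the share was 33.0%, and 12 of the 30 marker genes held one, including those of the macrophage genes C1qb, Timd4, Trem2 and Aif1. TATAAA on the forward strand, the word of a TATA box, was 31 bases before the start of Cpa3 and 32 before that of Mcpt4, and was not in the window of Cma1. It was in a window of 9.77% of all genes and of 5 of the 30 marker genes, those of Laptm5, Cpa3, Mcpt4, S100a8 and S100a9.

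Cd74, the invariant chain that guides MHC class II molecules to the compartment where they load peptide, differed most between the animals among the members with 100 or more counts in each library. It had 3.21 TPM from 110 counts in replicate 1 and 8.45 TPM from 265 counts in replicate 2, a 2.55-fold difference. The log2 ratio was 1.35 with an interval of 1.03 to 1.69. The MHC class II chains H2-Aa (40 and 84 counts), H2-Ab1 (38 and 94) and H2-Eb1 (42 and 87) were also higher in replicate 2, with a summed level of 4.14 and 9.55 TPM. Their joint log2 ratio was 1.23 (0.91 to 1.55). Cd74 was 2.74-fold the level of H2-Ab1 in replicate 1 and 2.51-fold in replicate 2.

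Macrophage and dendritic cell genes were mixed beside this. Csf1r had a log2 ratio of 0.07 (-0.03 to 0.16), Adgre1 one of 0.01 (-0.23 to 0.26) and Zbtb46, a transcription factor of dendritic cells and endothelium, one of 0.00 (-0.19 to 0.19). Others differed as much as Cd74 or more: Timd4 as given above, Ccr7, the receptor of migrating dendritic cells, with 3 and 18 counts, and Cebpa, a transcription factor of myeloid cells, fat cells and epidermis, with 313 and 831 counts. The log2 ratio of Cebpa was 1.49 (1.30 to 1.69). Itgax, which encodes the dendritic cell integrin CD11c, stood at 0.15 and 0.11 TPM, and Ciita, the activator of class II genes, had 5 and 11 counts. Markers of the Langerhans cells of skin differed in the direction of Cd74: Cd207 had 0 counts in replicate 1 and 7 in replicate 2, and Epcam, which skin epithelium also expresses, had 3 and 79. With the other gene of that list, Mfge8 (41.89 and 47.42 TPM), which is not specific to these cells, they summed to 42.0 and 49.4 TPM. The 8 keratinocyte markers, at 14.3 and 768 TPM in sum, moved in the same direction, and their part in the Cd74 difference was not tested.

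**Figure D3:**
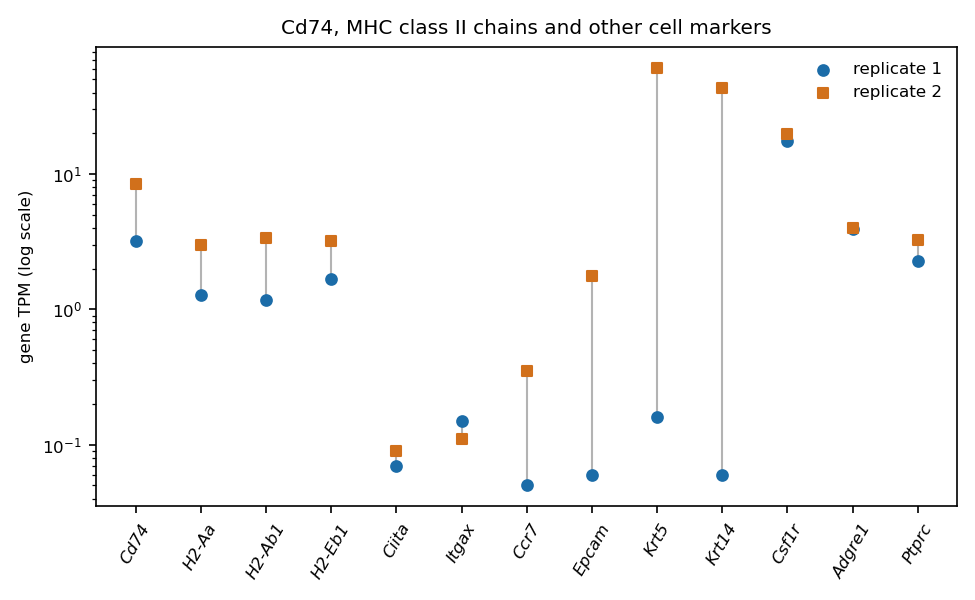
Level in TPM (vertical log axis) of Cd74, 3 MHC class II chains, their activator Ciita and 2 dendritic cell genes (Itgax, Ccr7), in replicate 1 (circles) and replicate 2 (squares). Also shown are the epithelial genes Epcam, Krt5 and Krt14, the macrophage markers Csf1r and Adgre1 and the general leukocyte marker Ptprc. Cd74 and the class II chains are all higher in replicate 2, as are the epithelial genes by a wider gap, while Csf1r and Adgre1 lie close together.

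Lymphocyte markers were all below 1 TPM in both libraries. Cd3e, a chain of the T cell receptor complex, had 15 counts in replicate 1 and 25 in replicate 2, a log2 ratio of 0.82 with an interval of -0.16 to 1.85. It overlaps the antisense gene Gm48719 (0.91 and 0.56 TPM), so its level is uncertain. Cd8a, the coreceptor of cytotoxic T cells, had 30 and 31 counts, and Cd79a, the signalling chain of the B cell receptor, had 16 in each. Every interval of the 4 lymphocyte genes that averaged at least 10 counts held 0, so no single gene showed a difference beyond counting error. Summed over the 5 genes, the counts were 99 and 127, a log2 ratio of 0.44 with an interval of 0.05 to 0.84. Nkg7, a granule protein of NK and cytotoxic T cells, had 0.08 and 0.36 TPM from 1 and 5 counts.

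Cd4, the coreceptor of helper T cells that some macrophages also carry, depended on the quantification. It stood at 0.68 and 0.67 TPM from 37 and 50 counts in the gene table, but at 1.76 ± 0.529 TPM from 85 and 102 estimated counts in the second quantification. Other lymphocyte genes were low as well, and their summed counts were also higher in replicate 2. The log2 ratio was 1.05 (0.82 to 1.29) for the T cell list and 0.68 (0.40 to 0.97) for the B cell list. Gata3, which the epidermis also expresses, gave 15 and 208 of the 229 and 448 T cell counts, so the T cell list ratio rested mostly on this gene. The median log2 ratio of the 6 T cell genes that averaged at least 10 counts was 0.43. Of 13 further T cell genes and 9 further B cell genes, 1 each reached 1 TPM in both libraries, Trbc2 (1.34 and 3.07 TPM) and Ighm (2.21 and 3.67 TPM). None of 8 NK and innate lymphoid genes did, and Ncr1, Gzmb and Eomes had no count in either library.

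Flt3, the receptor of dendritic cell and lymphoid progenitors, was the lowest of the 40 genes at 0.01 and 0.05 TPM, with 1 and 5 counts. Its ligand Flt3l stood at 2.09 and 1.99 TPM.

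Neutrophil genes were near 1 TPM and rested on few counts. S100a8 and S100a9, which encode the subunits of calprotectin and lie 22.6 kb apart on chromosome 3, differed in how they compared between the animals. S100a8 had 1.85 and 1.89 TPM from 21 and 20 counts, a log2 ratio of 0.01. S100a9 had 1.30 and 3.38 TPM from 16 and 38 counts, a log2 ratio of 1.33 with an interval of 0.46 to 2.27. The ratio of S100a9 to S100a8 was thus 0.703 in replicate 1 and 1.79 in replicate 2. S100a8 and S100a9 are also made by activated keratinocytes, and the part of the skin genes in the S100a9 difference was not tested.

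The granule genes of maturing neutrophils were lower. Ngp, the neutrophilic granule protein, had 13 and 21 counts, and its interval held 0. Ltf, lactoferrin, had 13 and 27 counts, a log2 ratio of 1.14 with an interval of 0.13 to 2.22, but its TPM of 0.49 and 0.55 gave a log2 ratio of 0.17. Ltf was the only member whose TPM lay outside the bounds the authors deposited with it, which were 0.908 to 2.69 TPM in replicate 1 and 1.24 to 3.33 TPM in replicate 2. Of 11 further neutrophil and marrow genes, none reached 1 TPM in both libraries, and their summed level was 2.40 and 2.62 TPM. A list of 4 eosinophil genes summed to 0.170 and 0.110 TPM, and none of them reached 1 TPM in both libraries.

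Taking the set as a whole, its ratios leaned further toward replicate 2 than those of all genes. The median log2 ratio of the 38 genes that averaged at least 10 counts was 0.18, against 0.01 for all 17998 such genes. The median was 0.14 for the macrophage genes, 0.24 for the signalling genes, 0.42 for the mast cell genes, 0.33 for 4 lymphocyte genes and 0.96 for the neutrophil genes. It was -0.08 for the monocyte receptors and -0.02 for the ligands.

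Over 2-fold differences were few. Timd4, Cd74, S100a9 and Ltf, 4 of the 38, were over 2-fold higher in replicate 2, against 5.23% of all genes, and 3 of these 4 had a mean count below 30. Counting intervals lay above 0 for 13 of the 38, against 19.0% of all genes. These were Mrc1, Lyz2, Timd4, Ptprc, Fcer1g, Laptm5, Cd74, Csf1, Cpa3, Cma1, Mcpt4, S100a9 and Ltf. Intervals lay below 0 for Maf and Ccl2, against 17.2% of all genes, and held 0 for the other 23. With the intervals of 19.0% of all genes above 0 and of 17.2% below 0, an interval that left out 0 was common in this pair of libraries.

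**Figure D4:**
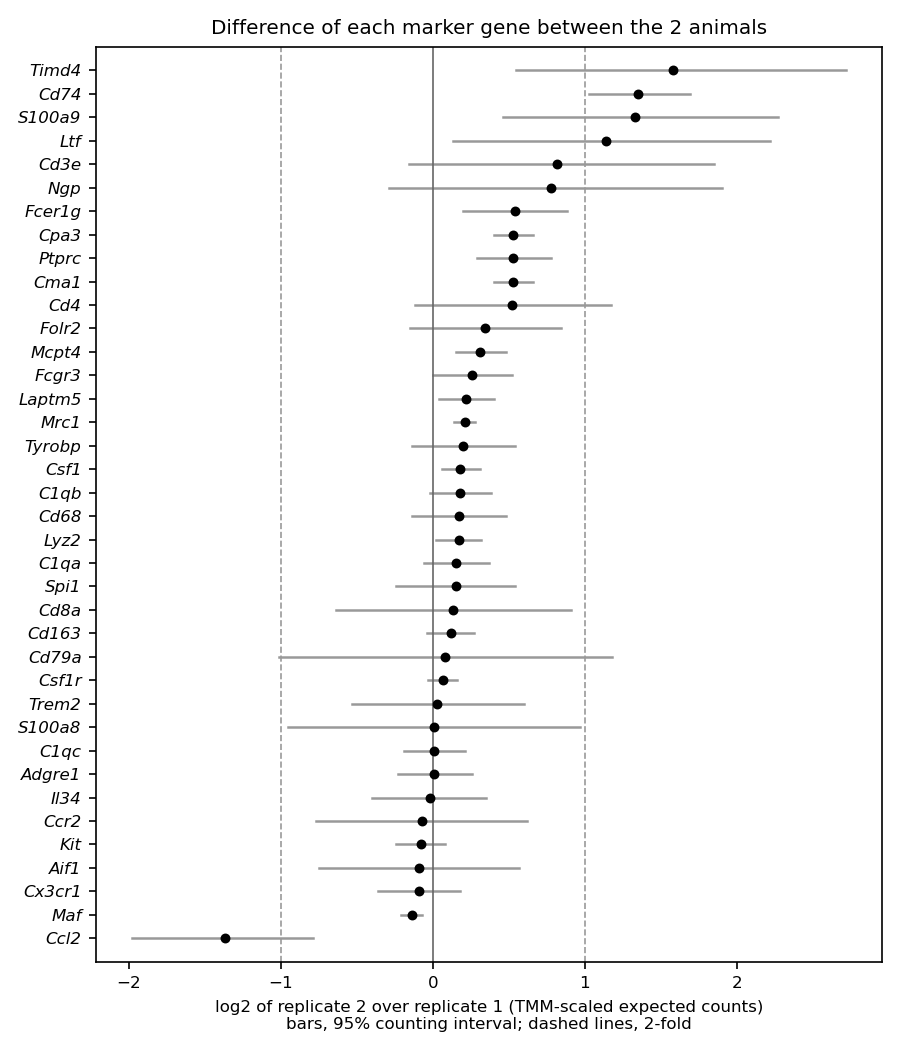
Log2 ratio of replicate 2 to replicate 1 (horizontal axis, TMM-scaled expected counts) for the 38 genes that averaged at least 10 counts, ordered by ratio, with 95% counting intervals as bars and dashed lines at 2-fold. Timd4, Cd74, S100a9 and Ltf lie beyond 2-fold on the right and Ccl2 on the left, and the intervals of the low genes are wide.

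Of the 40 genes, 7 had a single annotated transcript. Among the 33 with more than 1, the leading transcript was the same in both libraries for 28, and the same in both libraries and both quantifications for 22. Cd74-201, the shorter coding form of the invariant chain, took 75.6% of Cd74 in replicate 1 and 69.5% in replicate 2, and Cd74-202 took 24.4% and 26.5%. Csf1-201 took 66.0% and 56.8% of Csf1, and Maf-202, the longer of 2 transcripts, took 58.4% and 53.7% of Maf.

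Other genes were assigned to different forms in the libraries. Cma1-202 held 92.9% of Cma1 in replicate 1 and 68.9% in replicate 2. S100a9-201 and S100a9-202, which differ little in length (512 and 519 nt), traded places: S100a9-201 held 0% and 99.7%. The second quantification gave the opposite order, 100% and 0%. Cd163-202 held 1.54% and 30.8% of Cd163. For Ptprc, whose alternative exons give the CD45 isoforms, Ptprc-203 led with 28.8% and 52.4%, but Ptprc-213 and Ptprc-204 led in the second quantification, so no isoform of CD45 could be singled out. Folr2 likewise was assigned to Folr2-201 in the first quantification and to Folr2-203 in the second.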

How the data were processed

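Total RNA libraries of 2 animals of 1 group were compared by replicate. The build mm10 and the annotation GENCODE M21 come from the deposited notes. The aligner and the program versions were not given in the sources used here. Per the file headers, whose column names are those RSEM writes, the deposited gene tables hold expected counts, TPM and bounds of a TPM interval (a signal with no stated level), and the deposited transcript tables give the percent of the gene in each transcript. Estimated counts and TPM of a second quantification, whose deposited columns are named as kallisto names them, were summed here over each gene's transcripts. Use of strand in counting is not stated, and reads carry no molecular identifiers in these files.

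Levels are TPM as deposited. Ratios used expected counts scaled by TMM in edgeR 4.0.16 (R 4.3.3). For the intervals, counts were rounded and the exact 95% interval of the split between the libraries was taken. A count of 0 was set to 3 for the ratios and was left as 0 for the intervals. Ratios are given for genes that averaged at least 10 counts. The script was tested on simulated data. Python 3.11.15, pandas 2.3.3 and scipy 1.17.1 were used. Alternatives were DESeq2 1.42.0 size factors, total counts, the second quantification, TPM rescaled to protein-coding genes, and other minima of TPM and count. The members, their roles, the 17 other lists (170 of 171 symbols matched) and the promoter words were chosen with earlier results of these data known. The text names all members, up to 3 of the highest genes of each other list and any gene a result turns on. Other genes named, such as those with no count, were chosen after their values were seen. The near copies of members, and ratios of TPM in place of counts, were added after seeing the data.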

Additional observations from a re-analysis of the deposited data

How the results depend on the processing

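All 38 log2 ratios between the animals stayed within their counting interval under DESeq2 size factors, total counts and the second quantification, and 36 did with TPM in place of counts. The exceptions were Csf1r (0.18) and Spi1 (0.83), and no ratio whose interval left out 0 changed sign. The number of genes over 2-fold, 5, became 1 at a mean count of 100 or more, where only Cd74 was left, and 7 with no minimum. The second quantification gave 5, of which 4 were shared, with Ngp in place of Ltf. Levels in TPM moved with the quantification. The second quantification gave medians of 15.0 TPM for the macrophage genes, 36.0 for the mast cell genes, 0.714 for the lymphocyte genes and 2.04 for the neutrophil genes. TPM rescaled to protein-coding genes gave 23.3, 57.8, 1.02 and 2.62 TPM for these groups. Rescaling multiplied every TPM of a library by 1 factor, 2.39 in replicate 1 and 2.40 in replicate 2, so it could not change the order of genes. Members at 1 TPM or more in both libraries numbered 31 and 34 under these alternatives. Why the second quantification gave higher TPM was not tested. Genes under about 30 counts, such as Timd4, Nkg7, Flt3 and the neutrophil genes, are limited by depth. No paired analysis was possible because there was only 1 group. Leaving out a library leaves 1, whose values are those given for each replicate.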
